A study of Mus musculus with 23 samples.

Results

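The genes described here were Pnpla3 and 9 other genes of intracellular fat breakdown, namely Pnpla2, Pnpla5, Pnpla8, Abhd5, G0s2, Lipe, Mgll, Lipa and Ces1d, taken by symbol from the deposited liver table. They were 10 of its 49585 genes, and all 10 were among the 14466 genes that averaged 10 counts or more and were tested. Polyadenylated RNA was sequenced from 23 livers of C57Bl/6J mice, 1 library per animal, taken at postnatal day 21 (day 22 for MetS-Ct_97). Dams ate a high-fat (45%) or control (10%) diet, beginning at 3 weeks of age and lasting 7 or 17 weeks, all sires ate control diet, and pups in litters of 5 were given to foster dams on the day of birth. Groups are named for exposure to maternal metabolic syndrome (MetS) or control dams (Ct), before birth first and during nursing second: MetS-MetS (both, 5 livers), Ct-MetS (nursing alone, 6), MetS-Ct (before birth alone, 6) and Ct-Ct (neither, 6). All 4 groups share strain, tissue and fostering. The sex, the litter and the dam's weeks on diet are not in the labels used here for each animal, so pups of 1 litter may be among the replicates, and p-values measure the spread between these animals alone.

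A stored triglyceride is taken apart in steps. In the cytosol, adipose triglyceride lipase removes the first fatty acid, with its helper CGI-58 and its inhibitor G0S2 setting the pace, hormone-sensitive lipase removes the next, and monoglyceride lipase the last. Liver adds a lysosomal acid lipase and a carboxylesterase of the endoplasmic reticulum that feeds lipoprotein assembly. PNPLA3 sits on lipid droplets and is closely related to adipose triglyceride lipase, but its gene is known as one that feeding and insulin switch on in liver together with fatty acid synthesis.

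Pnpla3 and Pnpla5 lie next to each other on chromosome 15 on opposite strands, with 0 protein-coding genes between them in the RefSeq annotation. RefSeq promoter windows were on hand for 9 of the 10 genes, Ces1d having no entry. The pair below is shown because these genes had the widest spread among livers; each run reads 5′ to 3′ on the gene's own strand in build GRCm38.p6, with the first at chr15:84167566-84167777 (plus strand) and the second at chr15:84123176-84123425 (minus strand). Capitals mark GC boxes (GGGCGG), the cAMP response element (TGACGTCA) and the E-box (CACGTG).
Pnpla3: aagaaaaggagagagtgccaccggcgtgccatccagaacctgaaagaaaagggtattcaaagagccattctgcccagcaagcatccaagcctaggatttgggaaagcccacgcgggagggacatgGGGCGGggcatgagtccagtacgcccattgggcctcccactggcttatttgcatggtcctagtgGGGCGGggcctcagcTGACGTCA
Pnpla5: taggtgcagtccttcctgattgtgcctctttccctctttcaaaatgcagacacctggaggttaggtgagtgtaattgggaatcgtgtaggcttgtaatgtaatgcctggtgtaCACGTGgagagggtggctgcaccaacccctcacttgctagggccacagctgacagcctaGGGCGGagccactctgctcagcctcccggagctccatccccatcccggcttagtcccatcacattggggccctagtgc

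In these windows Pnpla3 holds 2 GC boxes and a cAMP response element, and Pnpla5 holds an E-box and a GC box. Both strands of the 250 bases before each window's annotated start were searched. Some of these bases lie within the gene's own RefSeq model, which can begin further upstream. That holds for all of both Lipe windows and the second Mgll window, and for the ends of the Pnpla3 and Pnpla8 windows. The Pnpla3 run printed above is therefore 212 bases long and stops at the end of its cAMP response element. An E-box was found in 6.02% of all 32851 mouse windows, a cAMP response element in 1.55% and a GC box in 32.7%. Among the 11 windows of the 9 genes, 3 held the E-box (Pnpla5, Lipe and Mgll), 1 the cAMP response element and 8 the GC box. The E-box and GC boxes of Lipe and the GC box of Mgll lie within the gene models. A sterol response element (TCACNCCAC, in 1.05% of all windows) and a PPAR element (a DR1 direct repeat, in 0.0335%) were in 0 of the 11. These are matches of letters and say nothing about binding.

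Per kilobase of exon, Ces1d was the most abundant of the 10 transcripts, at a mean of 155 counts per 1000000 of the library's normalised total (CPM) per kilobase over the 23 livers. G0s2 (55.9), Lipa (44.0), Mgll (41.6) and Pnpla2 (27.7) came next on that scale. Pnpla3 (9.60), Pnpla8 (8.46), Abhd5 (6.53) and Lipe (2.57) were lower, and Pnpla5 was the lowest at 0.752. The lengths join all annotated exons of a gene, so the order is coarse where transcripts are short relative to their gene model. All values from here on are CPM on normalised library sizes, not divided by length. Library totals ran from 16876460 to 34527932 counts. Hepatocyte markers (8 of 8 detected) summed to 141252 to 161032 CPM in MetS-MetS, 124230 to 152012 in Ct-MetS, 124447 to 151391 in MetS-Ct and 108240 to 144061 in Ct-Ct.

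Pnpla3, a droplet-bound acylglycerol hydrolase and transacylase, had the second widest range of the 10 genes, 105-fold between the highest and lowest liver. The set was chosen by the measured fall of Pnpla3 with nursing by a MetS dam, so its values here are a description with no test. The 5 MetS-MetS livers held 0.717, 2.31, 2.97, 3.51 and 3.61 CPM, the 6 Ct-MetS livers 3.75 to 12.1 (median 4.81), the 6 MetS-Ct livers 2.75 to 43.9 (median 8.07) and the 6 Ct-Ct livers 6.64 to 75.2 (median 22.4). Every MetS-MetS liver lay below every Ct-MetS and every Ct-Ct liver; the highest MetS-MetS liver held 3.61 CPM and the lowest Ct-MetS liver 3.75. Such a gap between groups was seen for 1.76% of all genes in MetS-MetS against Ct-MetS and for 4.41% in MetS-MetS against Ct-Ct. MetS-Ct was split: MetS-Ct_53, MetS-Ct_97 and MetS-Ct_70 held 2.75, 3.35 and 3.59 CPM, within the MetS-MetS range, and MetS-Ct_120, MetS-Ct_85 and MetS-Ct_149 held 12.6, 20.2 and 43.9 CPM. Ct-Ct ranged as widely, with Ct-Ct_129 and Ct-Ct_139 at 75.2 and 69.2 CPM and the other 4 livers between 6.64 and 26.9. The 11 livers nursed by MetS dams all lay below the mean of the 12 nursed by Ct dams, a mean raised by a few high livers. Those 12 ranged from 2.75 to 75.2 CPM (median 15.3), so the ranges overlapped. The log2 fold changes were −2.43 ± 0.70 (SE) for Ct-MetS over Ct-Ct and −2.47 ± 0.79 for MetS-MetS over MetS-Ct, while that for MetS-Ct over Ct-Ct was −1.24 ± 0.67. The comparisons that share Ct-Ct share its livers.

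Pnpla5, the neighbouring lipase with triglyceride hydrolase activity in vitro, fell with nursing by a MetS dam and was near the detection limit in those livers. The MetS-MetS livers held 0.109, 0.134, 0.186, 0.217 and 0.379 CPM, or 2 to 8 counts each. Ct-MetS livers held 0.0271 to 0.701 CPM (median 0.262), MetS-Ct livers 0.0430 to 6.20 (median 0.946) and Ct-Ct livers 0.730 to 9.48 (median 2.13; 19 to 266 counts). Every liver nursed by a MetS dam was below every Ct-Ct liver, narrowly in Ct-MetS, whereas MetS-Ct overlapped all 3 other groups. Ct-MetS_63 held 0.701 CPM from 23 counts and Ct-Ct_10 held 0.730 CPM from 19 counts. On library totals alone (30406948 and 27177666) the order of these livers turns, so the gap between Ct-MetS and Ct-Ct rests on the normalisation. Groups without overlap were seen for 1.42% of all genes in Ct-MetS against Ct-Ct and for 4.41% in MetS-MetS against Ct-Ct. Mean counts were 4.4 in MetS-MetS and 9.17 in Ct-MetS, under the minimum of 10, against 47 in MetS-Ct and 112 in Ct-Ct. Pnpla5 thus passed the count filter only through the Ct-nursed groups, where it was high, which limits its calls. Averaged over both birth dams, Pnpla5 was 10.2-fold lower in pups nursed by MetS dams than in pups nursed by Ct dams (log2 −3.35 ± 0.71, adjusted p = 0.0119, edgeR's quasi-likelihood test with Benjamini-Hochberg adjustment over all 14466 genes). In 11 of 11 livers it was below the mean of the Ct-nursed livers, a mean raised by a few high livers. The Ct-nursed livers ranged from 0.0430 to 9.48 CPM (median 1.37), so the ranges overlapped. The call held when each of the 23 libraries was left out in turn. With limma-voom the change was −2.59 and missed the threshold (adjusted p = 0.0952). In MetS-MetS it was 19.3-fold lower than in Ct-Ct (log2 −4.27 ± 1.08, adjusted p = 0.0266), a call lost without MetS-MetS_110, MetS-MetS_154, MetS-MetS_157, Ct-Ct_129 or Ct-Ct_139 (adjusted p 0.0539 to 0.0669) and with limma-voom (log2 −3.55, adjusted p = 0.106). Its change in Ct-MetS over Ct-Ct, −3.70 ± 0.92, had an adjusted p of 0.0565, and that in MetS-MetS over MetS-Ct, −3.00 ± 1.08, one of 0.229.

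**Figure D1:**
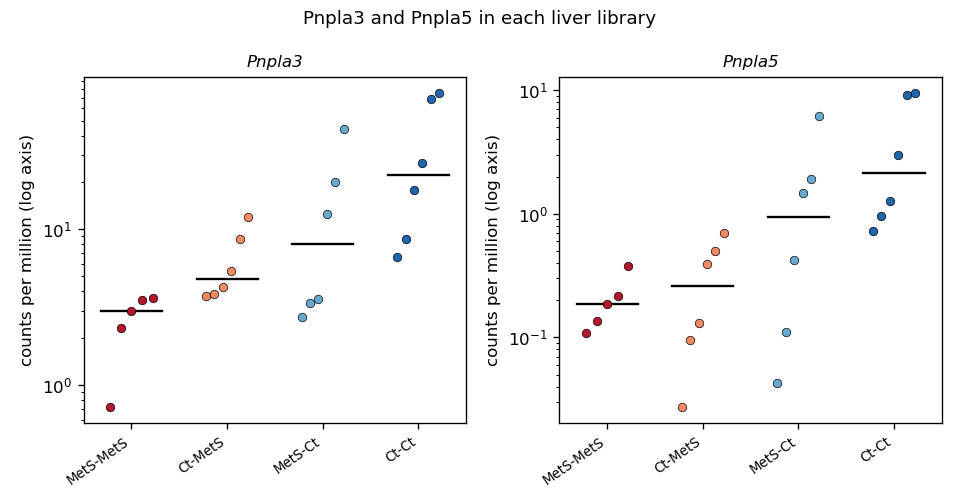
CPM of Pnpla3 and Pnpla5 on log axes, 1 point per liver, with a bar at each group's median, for MetS-MetS, Ct-MetS, MetS-Ct and Ct-Ct. The MetS-MetS livers sit at 0.717 to 3.61 CPM of Pnpla3, below all Ct-Ct livers (6.64 to 75.2), and MetS-Ct spreads from 2.75 to 43.9.

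In bulk liver RNA, fewer cells of a type and less RNA per cell cannot be told apart, here or for the genes below. Beyond the neighbours themselves, Samm50, a mitochondrial outer membrane assembly gene on the other side of Pnpla3 and named after its values were seen, fell by 0.27 on the log2 scale with MetS nursing (SE 0.070, adjusted p = 0.0297, edgeR). Sult4a1, beyond Pnpla5, was below the count minimum.

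Pnpla2, adipose triglyceride lipase itself, did not pass the test with nursing. It was at 73.4, 77.1, 98.3, 102 and 181 CPM in MetS-MetS, 48.4 to 83.6 in Ct-MetS (median 71.1), 48.4 to 133 in MetS-Ct (median 101) and 46.2 to 92.6 in Ct-Ct (median 63.05). All groups overlapped, and the higher medians were those of the 2 groups born to MetS dams. The change with nursing was 0.099 ± 0.169 (log2 ± SE, adjusted p = 0.781), with an interval of 2 SE from −0.24 to 0.44, and −0.040 without MetS-MetS_39. The change with birth to a MetS dam, averaged over both nursing dams, was 0.60 ± 0.17, with 10 of 11 livers above the mean of the livers born to Ct dams. Its adjusted p of 0.164 missed the threshold (edgeR), and DESeq2 gave 0.0407. MetS-MetS over Ct-Ct was 0.70 ± 0.24 (adjusted p = 0.0832, edgeR). It passed with DESeq2 (0.70, adjusted p = 0.0428) and without Ct-Ct_10 (0.83, adjusted p = 0.0483). MetS-MetS_39 was the highest liver, and without it that change was 0.43.

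Abhd5, which encodes the helper CGI-58, had the smallest nursing change of the 10 genes. It was at 34.7, 35.4, 37.4, 38.4 and 41.4 CPM in MetS-MetS, 24.7 to 47.7 in Ct-MetS (median 42.7), 25.1 to 39.5 in MetS-Ct (median 35.4) and 31.4 to 63.5 in Ct-Ct (median 41.3). The groups overlapped. The nursing change was 0.0023 ± 0.124 (adjusted p = 0.995), with an interval from −0.25 to 0.25, and its sign depended on the scaling and on single libraries. With birth to a MetS dam it was −0.24 ± 0.12 (adjusted p = 0.329), and 11 of 11 livers were below the mean of those born to Ct dams. Abhd5, Lipe, Mgll and Pnpla8 share 950, 918, 167 and 91 exon bases with genes on the other strand (GENCODE M21), and the strand setting of the counting is not known from the sources used here. Pnpla3 shares 105 exon bases with Gm49513, a processed transcript on its own strand, whose part in the Pnpla3 counts was not tested.

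G0s2, the inhibitor, varied 12.1-fold between extremes. MetS-MetS livers held 18.4, 32.8, 40.7, 44.4 and 146 CPM, Ct-MetS livers 12.5 to 115 (median 86.5), MetS-Ct livers 21.0 to 79.1 (median 33.9) and Ct-Ct livers 12.1 to 66.1 (median 22.0). In Ct-MetS, 4 of 6 livers were above the highest Ct-Ct liver. The change was 1.24 ± 0.55 in Ct-MetS over Ct-Ct (adjusted p = 0.314) and 0.87 ± 0.40 with nursing (adjusted p = 0.211), or 0.50 without MetS-MetS_39. MetS-MetS over Ct-Ct was 0.94 ± 0.57 (adjusted p = 0.328), or 0.21 without that liver. Per length, G0s2 over Pnpla2 was 0.826 to 2.80 in MetS-MetS and 0.586 to 5.65 in Ct-MetS, against 0.608 to 2.06 in MetS-Ct and 0.552 to 3.20 in Ct-Ct. The 4 highest ratios, 3.91, 4.73, 5.46 and 5.65, were all in Ct-MetS livers, a pattern described after the values were seen.

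The later cytosolic steps belong to Lipe and Mgll. Lipe, hormone-sensitive lipase, was low in all groups: 13.6, 16.2, 16.6, 17.99 and 19.3 CPM in MetS-MetS, 9.89 to 19.99 in Ct-MetS, 10.2 to 21.4 in MetS-Ct and 9.83 to 16.5 in Ct-Ct. The groups overlapped, and the nursing change of 0.14 ± 0.13 (adjusted p = 0.562) had an interval from −0.11 to 0.39. MetS-MetS over Ct-Ct was 0.30 ± 0.18 (adjusted p = 0.319). Lipe is also a gene of fat cells: the defining adipocyte transcript Lep was at 0 in every library, and 6 such transcripts (Adipoq, Lep, Retn, Cfd, Plin1 and Cidea) summed to 11.9 CPM in MetS-MetS_110, 3.92 in Ct-Ct_10 and at most 0.939 elsewhere. The sum of all 8 adipocyte markers was 36.7 to 66.9 CPM in MetS-MetS and 45.0 to 85.4 in Ct-MetS, against 34.3 to 62.5 in MetS-Ct and 43.3 to 59.9 in Ct-Ct. Most of it came from the other 2 markers, Fabp4 and Adrb3. Mean Fabp4 was 31.1 CPM in MetS-MetS, 42.5 in Ct-MetS, 28.2 in MetS-Ct and 21.3 in Ct-Ct. Mean Adrb3 was 15.3, 20.7, 21.6 and 27.4 CPM in the same order. EdgeR called 1 of these 2 markers, Fabp4, higher in Ct-MetS over Ct-Ct, where 0.954% of all genes were called. Mean Adrb3 was lower there and was not called. The part of fat cells in the Lipe values was not tested.

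Mgll, monoglyceride lipase, rose with nursing by a MetS dam. It stood at 249, 280, 287, 310 and 359 CPM in MetS-MetS, 97.6 to 293 in Ct-MetS (median 236), 128 to 234 in MetS-Ct (median 177) and 115 to 197 in Ct-Ct (median 162). Every MetS-MetS liver was above every MetS-Ct and every Ct-Ct liver, and in Ct-MetS 5 of 6 were above the highest Ct-Ct liver, with Ct-MetS_50 the lowest of all 23. Groups without overlap were seen for 1.76% of genes in MetS-MetS against MetS-Ct and for 4.41% in MetS-MetS against Ct-Ct. The nursing change was 1.56-fold (log2 0.64 ± 0.14, adjusted p = 0.0133, edgeR), with 10 of 11 livers above the mean of the Ct-nursed livers, and the call held with each library left out. MetS-MetS over Ct-Ct was 1.84-fold (0.88 ± 0.20, adjusted p = 0.0179), lost only without Ct-Ct_129 among the 23 libraries left out (adjusted p = 0.0515). Ct-MetS over Ct-Ct was 0.50 ± 0.19 (adjusted p = 0.225), and without Ct-MetS_50 it was 0.66 (adjusted p = 0.0311). MetS-MetS over MetS-Ct was 0.78 ± 0.20 (adjusted p = 0.0913), and without Ct-MetS_50, which enters through the shared spread, its adjusted p was 0.0267.

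Ces1d, the triglyceride hydrolase of the endoplasmic reticulum, was highest where birth and nursing dams both had MetS. MetS-MetS livers held 509, 616, 622, 660 and 670 CPM, Ct-MetS livers 228 to 435 (median 267), MetS-Ct livers 177 to 536 (median 382) and Ct-Ct livers 134 to 423 (median 220). All 5 MetS-MetS livers were above every Ct-MetS and every Ct-Ct liver, and 4 of 5 were above every MetS-Ct liver. Groups did not overlap for 1.76% of all genes in MetS-MetS against Ct-MetS and for 4.41% in MetS-MetS against Ct-Ct. MetS-MetS exceeded Ct-Ct by 2.57-fold (log2 1.36 ± 0.28, adjusted p = 0.0121, edgeR), and that call held with each library left out. The separate exposures were not called: nursing 0.52 ± 0.19 (adjusted p = 0.124) and birth 0.84 ± 0.19 (adjusted p = 0.156; 10 of 11 livers above the mean of those born to Ct dams). Without Ct-Ct_33 both passed (adjusted p = 0.0386 and 0.0422), and DESeq2 gave 0.0113 for birth. The interaction, which asks whether the exposures act differently together, was 0.46 ± 0.39 (adjusted p = 0.905). Close Ces1 paralogs exist, and the counting may have divided reads among them.

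Pnpla8, a calcium-independent phospholipase of mitochondria and peroxisomes, varied the least, 1.85-fold over the 23 livers. It was at 136, 137, 146, 159 and 161 CPM in MetS-MetS, 86.8 to 137 in Ct-MetS (median 118), 96.2 to 141 in MetS-Ct (median 111) and 89.0 to 136 in Ct-Ct (median 105). In MetS-MetS 4 of 5 livers were above the highest Ct-Ct liver. The difference from Ct-Ct was 1.37-fold (0.45 ± 0.12, adjusted p = 0.0308, edgeR), and 8 of the 23 fits with a library left out put it above the threshold (MetS-MetS_39, MetS-MetS_110, MetS-MetS_154, MetS-MetS_157, Ct-Ct_4, Ct-Ct_129, Ct-Ct_130 and Ct-Ct_139, adjusted p 0.0519 to 0.0754). Nursing gave 0.22 ± 0.083 (adjusted p = 0.131) and birth 0.23 ± 0.083 (adjusted p = 0.201).

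Lipa, the lysosomal acid lipase, was at 291, 302, 308, 319 and 405 CPM in MetS-MetS, 237 to 368 in Ct-MetS (median 337), 167 to 353 in MetS-Ct (median 283) and 210 to 334 in Ct-Ct (median 295). The groups overlapped. The nursing change was 0.25 ± 0.11 (adjusted p = 0.205), with 10 of 11 livers above the mean of the Ct-nursed livers, and MetS-MetS over Ct-Ct was 0.22 ± 0.16 (adjusted p = 0.416). Macrophages use Lipa and Mgll too, and macrophage markers moved with nursing: 5 of 8 Kupffer cell markers rose, and the sum of the 8 was 443 to 721 CPM in MetS-MetS and 516 to 732 in Ct-MetS, against 461 to 531 in MetS-Ct and 346 to 448 in Ct-Ct. Their part in the values of Mgll and Lipa was not tested. Of the other markers, 4 of 8 erythroid, 1 of 8 stellate and 1 of 8 endothelial genes rose with nursing, where 2.27% of all genes rose. EdgeR called 0 of 8 hepatocyte (1 at an unadjusted p under 0.05; DESeq2 0), 0 of 2 tested adipocyte (2 unadjusted; DESeq2 1), 0 of 5 tested cholangiocyte and 0 of 1 tested pancreatic markers (0 unadjusted and DESeq2 0 for both), and limma-voom called 0 of these.

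**Figure D2:**
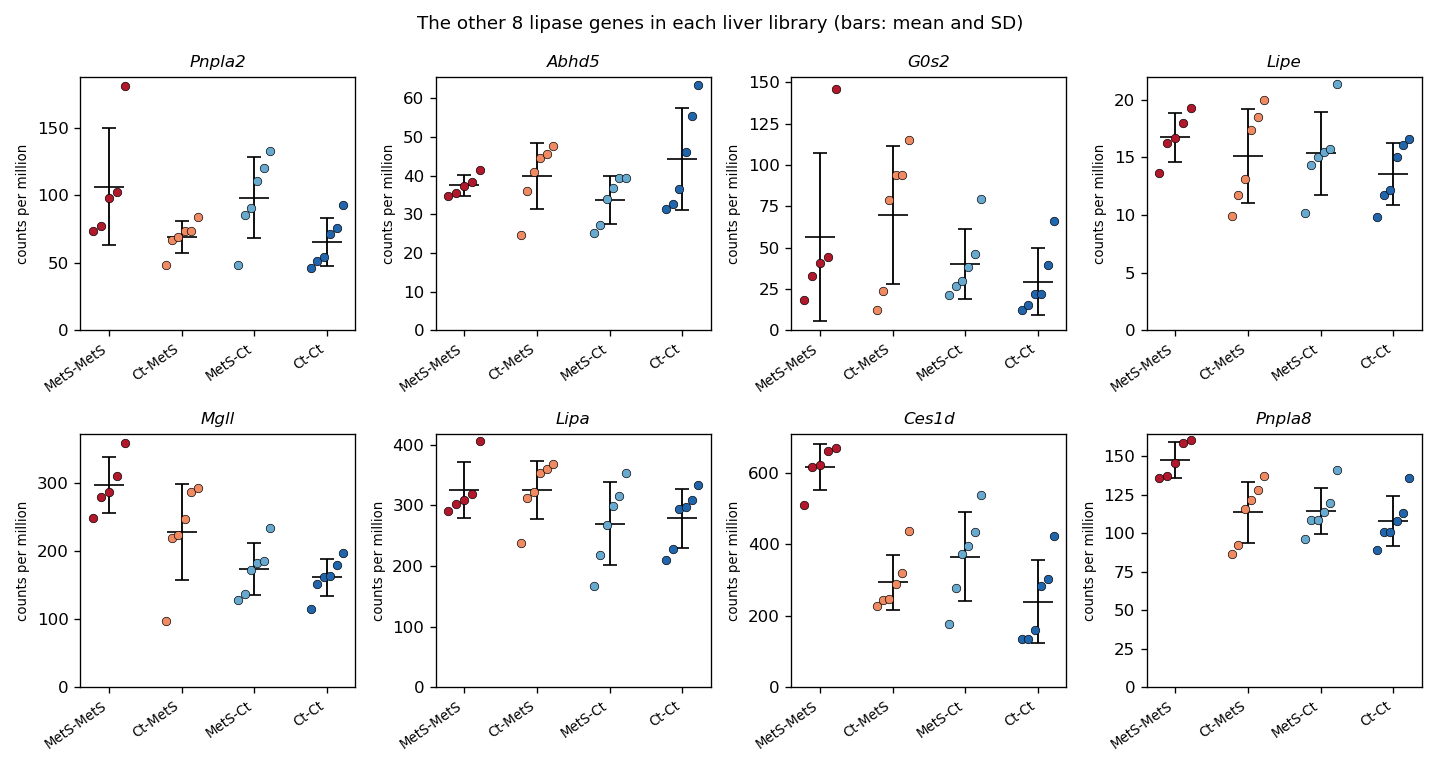
CPM of the other 8 genes on linear axes, 1 point per liver, with bars for each group's mean and SD and groups in the order MetS-MetS, Ct-MetS, MetS-Ct, Ct-Ct. Mgll and Ces1d in MetS-MetS lie above all Ct-Ct livers (249 to 359 against 115 to 197 CPM for Mgll), and the isolated high MetS-MetS points are MetS-MetS_39 for Pnpla2 and G0s2 and MetS-MetS_154 for Lipa.

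The members and the gene lists below were chosen with earlier results of these data known. Counts set against the share of all genes are therefore a description. Leaving out Pnpla3, 2 of 9 members were called with nursing, Pnpla5 lower and Mgll higher, where 4.22% of all genes were called (2.27% higher and 1.95% lower). At an unadjusted p under 0.05 there were 6 of 9, against 21.2% of genes. In MetS-MetS against Ct-Ct, 4 of 9 were called (DESeq2 5, limma-voom 3), Ces1d, Mgll and Pnpla8 higher and Pnpla5 lower, where 5.78% of genes were called (3.06% higher and 2.72% lower). At an unadjusted p under 0.05 there were 5 of 9, against 24.4% of genes. In both comparisons Pnpla5 had passed the count filter only through the groups nursed by Ct dams. The median log2 change of the 9 was 0.22 with nursing, against −0.0075 for all genes, and 0.45 in MetS-MetS over Ct-Ct, against −0.0038. In Ct-MetS against Ct-Ct, edgeR called 0 of 9 (3 at an unadjusted p under 0.05, against 13.9% of genes; DESeq2 called 1 and limma-voom 0), where 0.954% of genes were called. In MetS-MetS against MetS-Ct, edgeR called 0 of 9 (4 unadjusted, against 14.1% of genes, DESeq2 1, limma-voom 0), where 0.415% of genes were called. The shares of genes called are edgeR's, here and below. With the same count filter DESeq2 called 1038 genes with nursing and 1346 in MetS-MetS against Ct-Ct. It called 425 in Ct-MetS against Ct-Ct and 136 in MetS-MetS against MetS-Ct. In MetS-MetS limma-voom called 527 against Ct-Ct and 16 against MetS-Ct.

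With birth to a MetS dam, averaged over both nursing dams, edgeR called 0 of 9, where it called 0.00691% of all genes. At an unadjusted p under 0.05 there were 3, against 16.3% of genes. DESeq2 called 2 of the 9, where it called 140 of all genes, and limma-voom called 0 of the 9. The median of the 9 was 0.16, against −0.0042 for all genes. MetS-Ct against Ct-Ct gave 0 of 9 by edgeR (3 unadjusted, against 5.9% of genes), DESeq2 and limma-voom. EdgeR called 0% of genes in that comparison and DESeq2 called 12 genes. There Pnpla2 was 0.59 ± 0.23, Ces1d 0.61 ± 0.27 and Abhd5 −0.39 ± 0.17, each with an adjusted p of 0.825, and Abhd5 was below the Ct-Ct mean in 6 of 6 livers. The interaction gave 0 of 9 by edgeR, DESeq2 and limma-voom. By edgeR 0 had an unadjusted p under 0.05, against 5.44% of genes, and the smallest adjusted p was 0.892. EdgeR called 0% of genes for the interaction and DESeq2 called 4 genes. A p that misses the threshold does not show that the 2 nursing contrasts are alike.

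**Figure D3:**
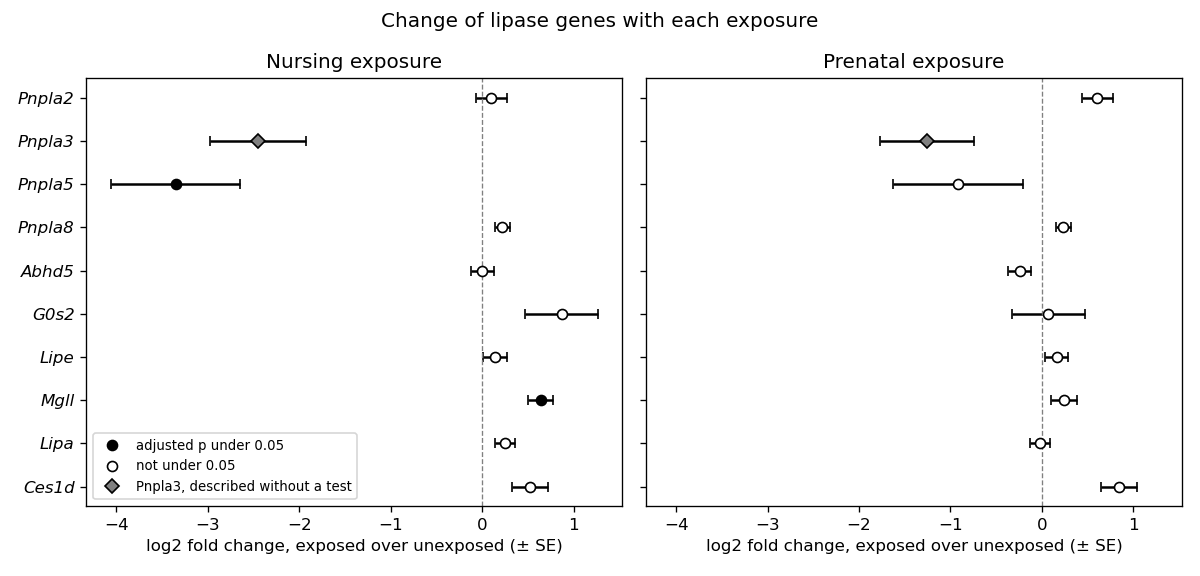
Log2 fold changes with bars of 1 SE for the 10 genes, for nursing by a MetS over a Ct dam (left) and birth to a MetS over a Ct dam (right). Filled points have an adjusted p under 0.05, open points do not, and the grey diamond marks Pnpla3, shown without a test; Pnpla5 (−3.35) and Mgll (0.64) are the filled points.

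Across livers some pairs of these genes ran together and others ran opposite. Spearman's rho over the 23 libraries, which share groups and depth, was 0.74 between Pnpla3 and Pnpla5, and 0.80 after group means were removed. Pnpla3 ran opposite to Ces1d (−0.77, and −0.65 with group means removed), Pnpla8 (−0.69 and −0.49) and Pnpla2 (−0.67 and −0.71). Abhd5 sided with Pnpla3 and Pnpla5 within groups: with group means removed its rho was 0.71 with Pnpla3 and 0.81 with Pnpla5, and −0.62 with Pnpla2, whose product it activates. Pnpla8 and Mgll ran together (0.75 and 0.62). MetS-MetS_39 had the lowest Pnpla3 and the highest Pnpla2 and G0s2 of all livers. These correlations are descriptions over livers that also differ in composition.

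**Figure D4:**
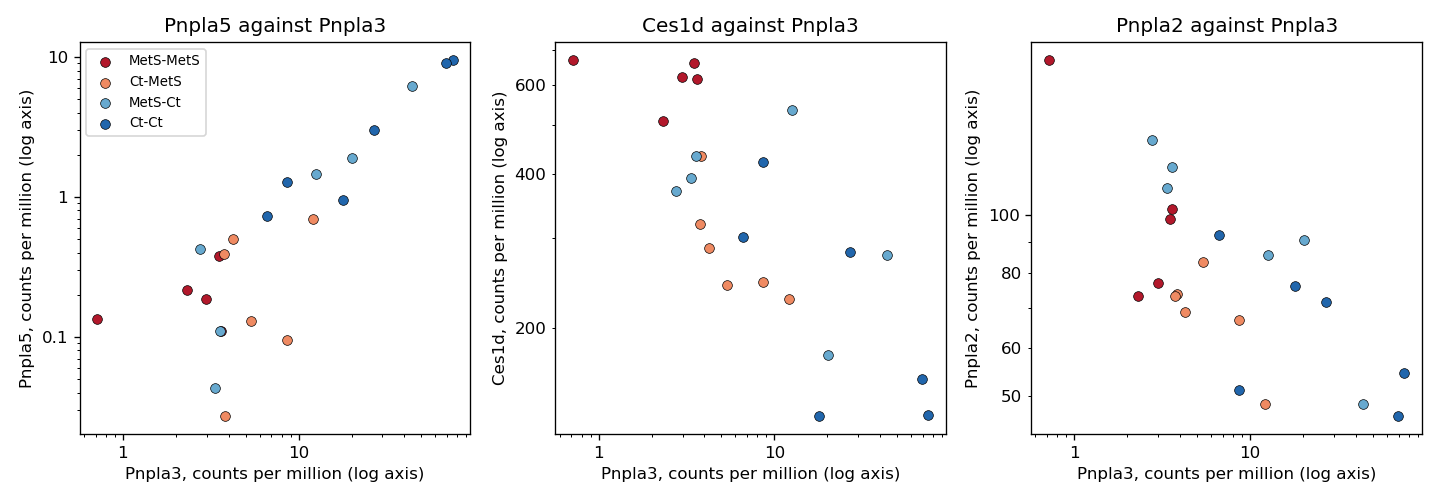
CPM of Pnpla5, Ces1d and Pnpla2 against CPM of Pnpla3, log axes, 1 point per liver coloured by group. Pnpla5 rises with Pnpla3 (rho 0.74), and Ces1d and Pnpla2 decline with it (−0.77 and −0.67).

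**Figure D5:**
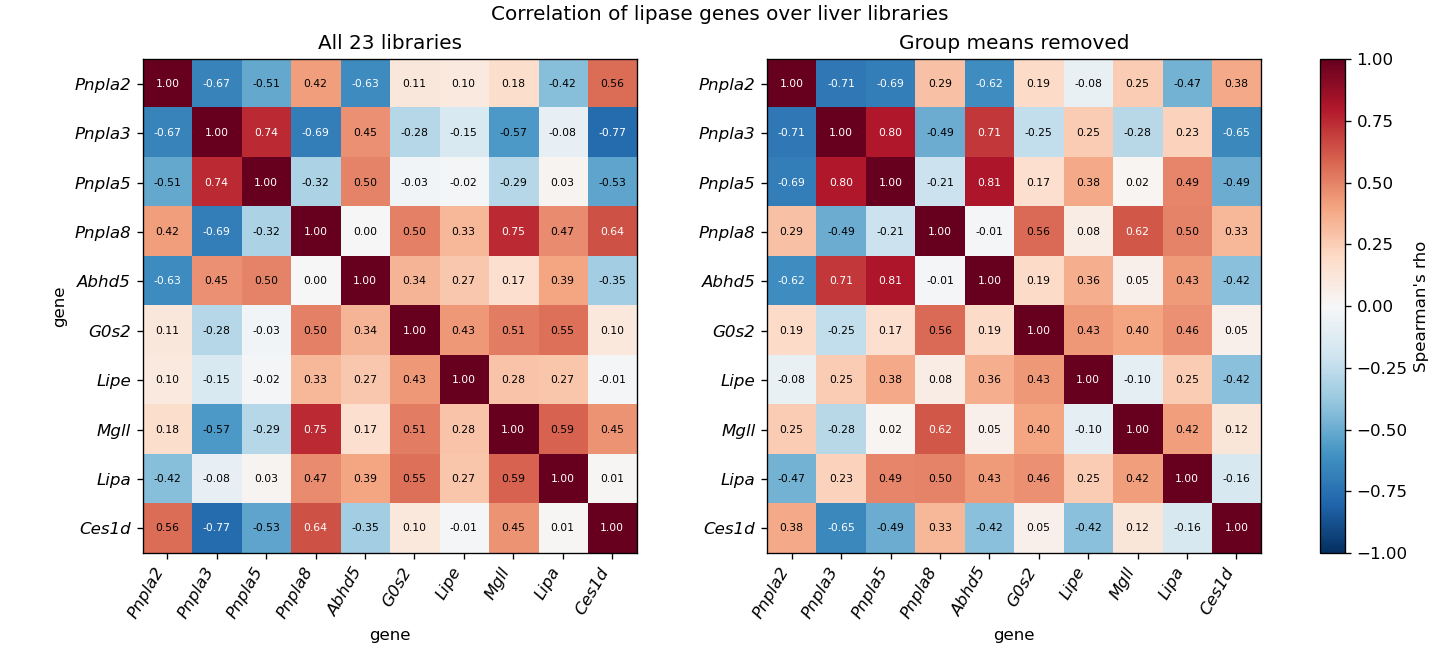
Spearman's rho between each pair of the 10 genes over the 23 livers (left) and with group means removed (right). Red is positive and blue negative. Pnpla3 is positive with Pnpla5 and Abhd5 and negative with Pnpla2, Pnpla8, Ces1d, Mgll and G0s2 in both panels.

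Likeness to Pnpla3 was ranked over 11120 protein-coding genes averaging 50 counts or more, without predicted genes and bare identifiers. Those closest to Pnpla3 over the 23 livers were Cyp20a1 (rho 0.92), Ccdc149 (0.89), Acly (0.89), Elovl6 (0.88), Fasn (0.88) and Pgd (0.86). Acly makes cytosolic acetyl-CoA, Fasn builds palmitate, Elovl6 lengthens it, and Pgd yields NADPH in the pentose phosphate pathway. With group means removed the values were 0.75 for Cyp20a1, 0.76 for Ccdc149, 0.92 for Acly, 0.89 for Elovl6, 0.89 for Fasn and 0.79 for Pgd. The lowest were Acadm (−0.92), a mitochondrial fatty acid dehydrogenase, Ephx2 (−0.91), soluble epoxide hydrolase, and Mrpl9 (−0.90), a mitochondrial ribosomal protein. Pnpla5, too low in counts to be ranked, had a rho that 0.495% of the ranked genes exceeded, and Ces1d was the 66th lowest.

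Of 19 other lipases and esterases 18 were tested. With nursing DESeq2 called 6 of them, where it called 1038 of all genes, and limma-voom called 4. By edgeR 3 rose and 0 fell (median 0.15), where 2.27% of all genes rose and 1.95% fell. They were Abhd6, another monoacylglycerol hydrolase (1.44-fold, 0.53 ± 0.10, adjusted p = 0.00725, edgeR), and the carboxylesterases Ces1e (1.80-fold, 0.85 ± 0.19, adjusted p = 0.0149) and Ces1f (2.93-fold, 1.55 ± 0.42, adjusted p = 0.0423). Abhd6 was at 32.2 to 46.6 CPM in MetS-MetS and 25.97 to 29.2 in Ct-MetS, against 15.9 to 36.7 in MetS-Ct and 17.7 to 25.7 in Ct-Ct. Every liver nursed by a MetS dam exceeded every Ct-Ct liver, narrowly in Ct-MetS, whereas MetS-Ct overlapped all other groups. Groups did not overlap for 1.42% of all genes in Ct-MetS against Ct-Ct and for 4.41% in MetS-MetS against Ct-Ct. In MetS-MetS against Ct-Ct, 4 of the 18 rose and 1 fell by edgeR, where 3.06% of all genes rose and 2.72% fell (DESeq2 called 6 and limma-voom 3).

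Of 12 genes that cover droplets or control lipolysis, edgeR called 0 with nursing (median 0.16), where 4.22% of all genes were called. At an unadjusted p under 0.05 there were 3, against 21.2% of genes, and DESeq2 called 1 and limma-voom 0. The lowest p values belonged to Plin2, the droplet coat protein (0.78 ± 0.25, adjusted p = 0.0776), Cidec, which fuses droplets (1.52 ± 0.54, adjusted p = 0.107), and Prkacb, a catalytic subunit of protein kinase A (0.18 ± 0.072, adjusted p = 0.158). Of 14 tested genes of lysosomes and lipophagy (15 listed) 1 rose, where 2.27% of all genes rose. It was the lysosomal membrane gene Lamp1 (0.22 ± 0.061, adjusted p = 0.0444, edgeR), and Atg14 (0.30 ± 0.12, adjusted p = 0.138) and Npc2 (0.19 ± 0.076, adjusted p = 0.145) did not pass.

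Of 14 lipogenic genes DESeq2 called 9 with nursing, where it called 1038 of all genes, and limma-voom called 2. By edgeR 5 fell and 0 rose (median −1.26), where 1.95% of all genes fell. They included Mlxipl, the carbohydrate-responsive factor ChREBP (−0.46 ± 0.10, adjusted p = 0.0134, edgeR), Scd1 (−2.15 ± 0.49, adjusted p = 0.0170) and Acaca (−1.30 ± 0.31, adjusted p = 0.0207). Of 14 targets of the fatty acid receptor PPARα, DESeq2 called 7 with nursing, against the same 1038 genes, and limma-voom called 5. By edgeR 5 rose and 0 fell (median 0.54), where 2.27% of all genes rose. They included Vnn1 (1.88 ± 0.34, adjusted p = 0.00596), Cpt2 (0.52 ± 0.12, adjusted p = 0.0150) and Cpt1a (0.53 ± 0.13, adjusted p = 0.0223), the last 2 being the enzymes of fatty acid entry into mitochondria. With birth to a MetS dam edgeR called 0 genes of each of these 5 lists, where 0.00691% of all genes were called. At an unadjusted p under 0.05 there were 4 of 18 other lipases and esterases and 6 of 12 droplet and lipolysis genes. By the same measure there were 5 of 14 lysosomal genes, 5 of 14 lipogenic genes and 12 of 14 PPARα targets, against 16.3% of all genes. DESeq2, which called 140 of all genes there, called 1 PPARα target and 0 genes of the other lists, and limma-voom 0 of all 5.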

How the data were processed

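Polyadenylated RNA of 23 livers was measured, with libraries made by a directional kit, per the labels. The submitters' processing notes name STAR, HTSeq, FastQC and DESeq2 with no version; the genome build and strand setting are not known from the sources used here. What the authors deposited is a table of counts per gene, whole numbers with unequal totals, which was taken as unnormalised in spite of its title. Genes averaging at least 10 counts (14466) were tested with edgeR 4.0.16 in R 4.3.3 (TMM factors, robust quasi-likelihood, 1 mean per group over all 23 libraries), with Benjamini-Hochberg adjustment and a threshold of 0.05. The SE is the log2 change divided by the square root of F. The procedure was tested on simulated data. Nursing and prenatal changes average over the other exposure. CPM use effective library sizes; correlations used log2(CPM + 0.5). Pairs of libraries within a group differed by more than sampling noise (chi-square per gene of at least 18.6). DESeq2 1.42.0, limma 3.58.1 (voom), other scalings and filters, and leaving out each library were alternatives. Leaving out MetS-MetS_110 and Ct-Ct_10, called adipocyte-high below, was added after seeing the data. These 2 were highest in the sum of adipocyte transcripts that leaves out Fabp4 and Adrb3. In the sum of all 8 adipocyte markers Ct-MetS_50 (85.4 CPM) and Ct-MetS_65 (78.0) were highest, with MetS-MetS_110 at 66.9 and Ct-Ct_10 at 45.8.

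The members and gene lists were chosen with earlier results of these data known. Named genes are the members, up to 3 genes per list with the smallest nursing p, and the 6 genes with the highest and 3 with the lowest rho with Pnpla3; other names were chosen after values were seen and are marked so. Marker lists of stellate, endothelial, cholangiocyte, erythroid and pancreatic cells were counted too.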

Additional observations from a re-analysis of the deposited data

Results flagged for a closer look

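In 4 of the 40 pairs of a member and a group (10%), 1 liver stood apart from the rest of its group by Dixon's criterion, which chance meets in about 5%. With CPM on library totals alone there were 6 such pairs. Pnpla2 was at 181 CPM in MetS-MetS_39, with the next MetS-MetS liver at 102. G0s2 was at 146 CPM in the same liver, with the next at 44.4, and that liver also held the lowest Pnpla3, at 0.717 CPM. Pnpla5 was at 6.20 CPM in MetS-Ct_149, with the next MetS-Ct liver at 1.90, and MetS-Ct_149 was the highest of its group in Pnpla3 too, at 43.9 CPM. Lipa was at 405 CPM in MetS-MetS_154, with the next at 319.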

How the results depend on the processing

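No paired analysis was possible because animal numbers are not shared between groups. The count of the 9 members called moved as follows. With DESeq2 it was 1 in Ct-MetS against Ct-Ct (Pnpla5), 1 in MetS-MetS against MetS-Ct (Mgll) and 2 with prenatal exposure (Pnpla2 and Ces1d), each against 0, and 5, against 4, in MetS-MetS over Ct-Ct (Pnpla2 gained). With limma-voom it was 3 there (Pnpla5 lost). With nursing it was 1, against 2, with limma-voom, and 1 with a mean of at least 50 counts, where Pnpla5 left the test. With no filter on low counts it was 2, against 4, in MetS-MetS over Ct-Ct, where Pnpla5 (adjusted p = 0.0564) and Pnpla8 (adjusted p = 0.0548) were lost. Without the 2 adipocyte-high libraries Pnpla8 was lost there (adjusted p = 0.0542). Of the 9 genes closest to or most opposed to Pnpla3, 4 were among them with group means removed.

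Leaving out each library gave 2 to 3 members with nursing, 0 to 1 in Ct-MetS over Ct-Ct, in MetS-MetS over MetS-Ct and with prenatal exposure, 0 to 0 in MetS-Ct over Ct-Ct and for the interaction, 1 to 5 in MetS-MetS over Ct-Ct, and 6 to 9 of the 9 likeness genes. In MetS-MetS over Ct-Ct the count was 1 without Ct-Ct_129 and 2 without MetS-MetS_110, MetS-MetS_154, MetS-MetS_157 or Ct-Ct_139. The nursing change of Abhd5 turned to −0.018 with library totals alone, −0.0059 with no filter, −0.0060 with a mean of at least 50 counts and −0.029 without the 2 adipocyte-high libraries, and ran from −0.038 to 0.068 over single libraries left out. The prenatal change of G0s2 was −0.022 with library totals alone and −0.29 to 0.28 over single libraries. The nursing change of Pnpla2 ran from −0.040 to 0.16 and the prenatal change of Lipa from −0.069 to 0.030. Of 1308 recomputed gene values, 1249 kept direction and call, 25 turned, 19 lost and 15 gained a call. The cause was not tested.

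Over all genes, the 611 nursing calls were 1038 with DESeq2, 367 with no filter and 380 without the adipocyte-high libraries. The 836 in MetS-MetS over Ct-Ct were 1346 with DESeq2, 527 with limma-voom, 1277 with library totals, 457 with no filter and 407 without those libraries. The 138 in Ct-MetS over Ct-Ct were 425 with DESeq2, 47 in a fit of these groups alone and 35 without those libraries, and the 60 in MetS-MetS over MetS-Ct were 136, 16 with limma-voom, 20 with no filter, 30 with a mean of at least 50 counts, 23 in a fit of these groups alone and 11 without those libraries. DESeq2 called 140 genes with prenatal exposure (edgeR 1, and 2 with library totals), 12 in MetS-Ct over Ct-Ct and 4 for the interaction (edgeR 0). Pnpla5 had the lowest counts of the members, 2 to 8 per MetS-MetS liver.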
